A study of Mus musculus with 78 samples.

Results

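The replication-dependent histone genes were taken as every protein-coding gene whose symbol begins with Hist1h, Hist2h, Hist3h or Hist4h, a rule that used names and no measured value. It found 67 genes among the 55401 genes of each deposited count table: 6 for the linker histone H1, 18 for H2A, 18 for H2B, 12 for H3 and 13 for H4. On mm10, 54 of them lay in the Hist1 cluster (chr13:21715763-23934851, 2.22 Mb), 10 in the Hist2 cluster (chr3:96219865-96270132), 2 at the Hist3 locus on chr11 and 1, Hist4h4, on chr6. Of the 67, 62 had a single exon.

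All groups came from the mouse embryonic stem cell line E14TG2a with genotype ZFP143-FKBP, made by sorting single cells and picking homozygous clones. Both Zfp143 copies carry a degron tag. dTAG-V1 at 500 nM thus destroys the protein in every treated library, while the DMSO controls carry the same tag. TT-seq captured RNA made while the cells took up 4-thiouridine at 2 mM for 10 min, from DMSO cells and from cells after 2, 6 and 24 h of dTAG-V1. RNA-seq measured steady-state RNA in DMSO cells and in cells depleted for 24, 48 or 72 h. A separate RNA-seq table held cells kept for 24 h in DMSO or dTAG-V1 and cells that then received 24 h of retinoic acid (RA) in another medium, the dTAG-V1 cells among them having been depleted for 48 h by the end. Each group had 2 libraries, which the authors call biological replicates. The labels do not give the number of clones behind them, and the p-values measure only the spread between these libraries.

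Library totals ran from 9721568 to 16532077 counts in TT-seq, from 10261851 to 15316700 in the RNA-seq time course and from 13890761 to 27089033 in the RA table. The summed level of the 8 stem cell markers (Pou5f1, Nanog and others) was 3437 to 3699 CPM (counts scaled to the size of the library) in TT-seq DMSO and 6520 to 6725 in RNA-seq DMSO, against 0.533 to 1.24 and 2.48 to 2.78 for the 4 fibroblast markers. The Zfp143 transcript itself was higher in dTAG-V1 at every time, by 1.17 on the log2 scale at 2 h of TT-seq (adjusted p = 0.00104, edgeR quasi-likelihood test) and by 1.30 at 72 h of RNA-seq (adjusted p = 3.43e-12, edgeR glmTreat). The tag acts on the protein, so this transcript does not check the labels.

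Replication-dependent histone genes supply the histones that package newly copied DNA, and they are transcribed mainly in S phase from clusters that gather at the histone locus body, a nuclear site organised by NPAT. Their mRNAs are the only cellular mRNAs of animals that normally end without a poly(A) tail: stem-loop binding protein (SLBP) and the U7 snRNP direct a cut just after a conserved stem-loop in the 3′ end. Replication-independent histones, by contrast, come mostly from polyadenylated mRNAs, many of them spliced.

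The stem-loop is what sets the 3′ ends of these mRNAs apart, so its versions are shown first. A stem with 6-base arms around a 4-base loop, beginning with GG and ending with CC, was searched on the sense strand, and capitals mark the arms.
Stem-loop of 38 members, among them Hist1h1a, Hist1h1c, Hist2h2bb and Hist3h2ba: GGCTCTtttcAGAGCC
Stem-loop of 9 members, among them Hist1h3c, Hist1h3e and Hist1h2bl: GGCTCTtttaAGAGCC
Stem-loop of 8 members, all H4, among them Hist1h4d, Hist1h4h and Hist1h4k: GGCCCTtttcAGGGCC
Stem-loop of Hist1h4i and Hist2h4: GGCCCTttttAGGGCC
Stem-loop of Hist1h4b and Hist1h4j: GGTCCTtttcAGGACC
Stem-loop of Hist1h3g: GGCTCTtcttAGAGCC
Stem-loop of Hist1h4a: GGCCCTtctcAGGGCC
Stem-loop of Hist2h2ac: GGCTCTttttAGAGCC

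Such a stem-loop began within 200 bases after the stop codon in 62 of the 67 genes (92.5%), a median of 31 bases and at most 58 bases from it, against 8 of 1354 other single-exon protein-coding genes (0.591%). The H4 genes carried arms that the other isotypes did not: all 13 H4 members had one of the arm pairs GGCCCT with AGGGCC or GGTCCT with AGGACC. None was found in this window for Hist2h2be, Hist1h2an, Hist1h2bp, Hist1h2bq and Hist1h2br. Within 75 bases of the annotated gene end the same letters were found for 37 members (55.2%) and for 1 of 1399 other single-exon genes (0.0715%). The annotated gene ran more than 75 bases past the stem-loop in 24 members, as in Hist1h1c (840 bases) and Hist1h4d (770 bases), and stopped before the end of the stem-loop in 16, as in Hist2h2bb and Hist1h4k.

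Promoter letters were read for the 62 members that matched a RefSeq gene (GRCm38.p6), in a window from 250 bases before to 50 after the start, on both strands. The letters TATAAA, the core of the TATA box, were present in 35 members (56.5%, against 13.6% of 32851 promoters), and CCAAT, the letters that NF-Y binds, in 53 (85.5%, against 37.4%). CCAAT was present in every H1, H2A, H2B and H3 promoter read and in 3 of 12 H4 promoters. The octamer ATTTGCAT, which Oct-family factors bind, was present in 13 members (21.0%, against 1.74%), 7 of them H2A and 6 H2B. ACTACAA, letters that occur in some ZFP143 sites, was in none of the 62, against 3.24% of all promoters. A match is a description of letters and no match says only that they are not in this window. The 120 bases before the RefSeq start are shown for 6 members on which the results below turn, with the TATA, CCAAT and octamer letters named above, on either strand, in capitals.
Hist1h1a, chr13:23763548-23763667, plus strand: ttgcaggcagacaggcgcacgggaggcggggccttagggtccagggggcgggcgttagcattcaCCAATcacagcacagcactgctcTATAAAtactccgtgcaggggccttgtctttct
Hist1h1c, chr13:23738687-23738806, plus strand: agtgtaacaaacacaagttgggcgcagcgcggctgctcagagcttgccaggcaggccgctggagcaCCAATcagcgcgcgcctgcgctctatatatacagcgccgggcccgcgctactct
Hist2h2bb, chr3:96269580-96269699, plus strand: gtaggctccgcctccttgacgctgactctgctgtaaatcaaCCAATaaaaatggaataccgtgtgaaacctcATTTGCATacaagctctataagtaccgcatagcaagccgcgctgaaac
Hist1h4k, chr13:21750554-21750673, minus strand: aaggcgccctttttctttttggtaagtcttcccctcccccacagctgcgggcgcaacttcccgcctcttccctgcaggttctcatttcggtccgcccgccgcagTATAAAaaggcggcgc
Hist1h4d, chr13:23581448-23581567, plus strand: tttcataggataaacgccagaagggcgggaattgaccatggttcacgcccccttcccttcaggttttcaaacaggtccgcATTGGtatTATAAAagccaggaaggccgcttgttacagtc
Hist3h2ba, chr11:58948791-58948910, plus strand: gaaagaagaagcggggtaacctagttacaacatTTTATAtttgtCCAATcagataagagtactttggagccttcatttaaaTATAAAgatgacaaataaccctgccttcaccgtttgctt

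ZFP143 binding, read from 1 list of ChIP peaks that the authors called for the series, was no more frequent at these genes than elsewhere. The centre of a peak lay within 2000 bases of the start of 5 of the 67 genes (7.46%), against 2245 of 21951 protein-coding genes (10.2%). These 5 genes shared 3 peaks. The peak chr13:21716788-21716960 lay over the 3′ end of Hist1h2ai (H2A) and its stem-loop, 452 bases from the start of that gene, 731 from that of Hist1h2bl (H2B) and 785 from that of Hist1h3h (H3). The peak chr13:23582770-23582963 lay past the 3′ end of Hist1h4d, and chr13:23738897-23739740 lay inside Hist1h1c. Their fold enrichments were 6.80, 8.50 and 11.3, below the median of 20.8 over all 3189 peaks (3.64 to 345). None held ACTACAA, which 639 of the 3189 peaks held. The full motifs that the authors found in nearly all ZFP143 peaks were not searched here. CTCF, an architectural factor that holds the base of many loops, had no peak centre within 2000 bases of any member start in a list pooled over DMSO and dTAG-V1, against 18.5% of protein-coding genes. A CTCF peak anywhere within 5000 bases was found for 1 member, Hist1h4c (1.49%), against 29.4% of protein-coding genes. The Hist2 cluster held no peak of either factor, and the Hist1 cluster held 5 of ZFP143 and 11 of CTCF.

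In nascent RNA the histone genes were transcribed at high levels. They held 0.455 to 0.748% of all TT-seq counts, and 52 of the 67 had more than 100 counts in each of the 8 libraries, while none was at 0 in all of them. In DMSO, the summed CPM, scaled by TMM (trimmed mean of M values), was 1941 and 1229 for the 6 H1 genes (1585 ± 503, SD, n = 2), 882 and 538 for H2A (710 ± 243), 1307 and 858 for H2B (1083 ± 317), 1351 and 776 for H3 (1063 ± 407) and 2045 and 1197 for H4 (1621 ± 600). Every isotype was higher in DMSO replicate 1, as were 65 of the 67 genes, and the ratio of the 2 DMSO sums was 1.64.

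Per kilobase of annotated exon, Hist1h1a, a linker histone, had the highest DMSO level (766 and 478 CPM per kb), and Hist2h2bb, an H2B of the Hist2 cluster, followed with 674 and 508. These neighbours overlapped between replicates, as did the linker histone Hist1h1b (588 and 377) and the H4 genes Hist1h4k (525 and 313), Hist1h4h (449 and 240) and Hist1h4b (379 and 227). Among H2A genes Hist1h2ak had 339 and 191 CPM per kb, Hist1h2ai 257 and 141, and Hist1h2ab 205 and 122. Among H3 genes Hist1h3h had 319 and 174, Hist1h3g 305 and 168, and Hist1h3i 298 and 167. The H2B genes after Hist2h2bb were Hist1h2bb (316 and 188) and Hist1h2bn (280 and 182), and the linker histone Hist1h1c had 213 and 127. The order depends on the annotated length: per kilobase of coding sequence Hist1h4d ranked 1 and Hist1h1d, whose annotated exon spans 7425 bases, ranked 4 in place of 44.

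Near-identical copies limit these levels, since TT-seq reads were kept only where they mapped to 1 place. A median of 47.0% of the 50-base words of a member recurred elsewhere in the genome. Of the 67 genes, 4 shared none (Hist1h1a, Hist1h1b, Hist1h1t and Hist2h2bb), 33 shared up to 50%, and 30 shared more. The 5 members over 99% (Hist1h2ao, Hist1h2ap, Hist1h2bq, Hist1h2br and Hist2h2aa2) had a median of 1.11 CPM in TT-seq DMSO, against 77.4 CPM or more for the medians of the other classes. Their true level was not measured. Reads over 2 genes of 1 strand were counted for both, which touches Hist1h2be, whose annotated span covers part of Hist1h1e, and Hist3h2a, which lies inside Trim17.

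Steady-state RNA-seq, made with a kit that selects poly(A) RNA, held almost no counts from the same genes. As CPM of the library total, the 67 genes summed to 7485 and 4553 in TT-seq DMSO, to 50.7 and 10.3 in DMSO of the RNA-seq time course, and to 15.4 and 15.5 in DMSO before RA. All 67 were higher in TT-seq than in either RNA-seq group, and the ratio of the sums was 197 against the time course and 389 against the RA table. In contrast, 1373 other single-exon protein-coding genes summed to 11283 and 9936 CPM in TT-seq and to 26026 and 28240 in the time course, a ratio of 0.391. The 11 replication-independent histones measured (H2afz, H3f3b, H2afy and others), whose mRNAs mostly carry tails, gave a ratio of 0.726, and 9 of the 11 were lower in TT-seq.

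Gene by gene the gap was wide. Hist2h2bb had 2484 and 2539 counts in TT-seq DMSO and 4 and 0 in RNA-seq DMSO, and Hist1h1a had 5485 and 4652 against 49 and 14. Hist1h1c had 3205 and 2596 against 52 and 17, and was the only member that reached the count filter in the time course. The narrowest gap was that of Hist2h2be, an H2B gene without a stem-loop in the window searched, with 32 and 43 counts in TT-seq against 2 and 7. In all 16 RNA-seq libraries 38 members had at most 10 counts, and 6 were at 0 (Hist1h2ap, Hist2h2aa1, Hist1h2bq, Hist1h2br, Hist2h3c1 and Hist1h4m).

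In the fit over the 6 DMSO libraries, a log2 difference compared both RNA-seq groups with TT-seq, and a gene was called at an adjusted p under 0.05 with an absolute log2 difference over 0.5 (edgeR quasi-likelihood test, Benjamini-Hochberg over 17943 genes). All 63 members tested were called lower in RNA-seq, where 44.4% of all genes were called lower and 33.1% higher. Since 45 of the 63 passed the count filter through the TT-seq libraries alone, they had to come out lower, and the count is given as a description. The median was −8.02 on the log2 scale, from −11.34 for Hist2h2bb to −2.66 for Hist2h2be, against −0.27 for all genes and 1.39 for 347 other single-exon genes. Hist3h2ba had −4.38 and Hist1h1c −6.07. The age of the RNA, tail selection, the counting of whole genes or exons and the experiment all differed between the assays and cannot be told apart.

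Where the annotated gene ran more than 75 bases past the stem-loop, members took a larger share of the RNA-seq counts than of the TT-seq counts. These 24 genes held 45.5% of the TT-seq counts of members, 55.0% of those in the depletion series of RNA-seq and 70.9% of those in the RA table. The 38 genes that ended within 75 bases of the stem-loop or before it held 53.4%, 40.3% and 23.8%. The 5 genes with no stem-loop found held 1.11%, 4.69% and 5.36%, and in both RNA-seq tables most of these counts were those of Hist2h2be. In the first class 3 genes (Hist1h1c, Hist1h2bc and Hist3h2ba) gave 59.5% of the RA table counts, and the median DMSO level before RA was 0.165 CPM in the first class and 0.123 in the second. These shares are sums over groups of genes with no test, and the libraries of the 3 tables differ in more than their tails.

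After depletion of ZFP143 no histone gene was called changed in nascent RNA, a count that lies near the low share of calls among all genes. No member of the 63 tested was called lower or higher at 2 h, where 2.43% of 17870 genes were called lower and 0.168% higher (edgeR quasi-likelihood test, adjusted p under 0.05 and absolute log2 change over 0.5). The same held at 6 h, where 2.83% of all genes were called lower and 0.397% higher, and at 24 h, where 4.09% were lower and 2.02% higher. Before adjustment 1, 1 and 3 members had p under 0.05. The median log2 change over members was −0.26 at 2 h, −0.24 at 6 h and −0.07 at 24 h, against 0.01 for all genes at each time and −0.22, −0.19 and −0.11 for 279 other single-exon genes.

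That small shift rested on 1 control library. The summed CPM was 7526 and 4598 in DMSO. After depletion it was 5753 and 4551 (2 h), 5629 and 4821 (6 h), and 5886 and 5722 (24 h), so that DMSO replicate 1 stood above all other libraries while DMSO replicate 2 lay among the lowest. Without DMSO replicate 1 the medians were 0.17, 0.20 and 0.36, and without replicate 2 they were −0.55, −0.56 and −0.36. Member counts themselves ranged from 58331 to 75551, a 1.30-fold range, while library totals ranged 1.70-fold, and DMSO replicate 1 had the lowest total. The part that depth played was not tested. No direction could be given for the nascent level of these genes at this replication.

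Of the genes with the highest nascent level, Hist1h1a had 567 and 354 CPM in DMSO, then 421 and 320 (2 h), 418 and 329 (6 h) and 408 and 368 (24 h). The dTAG-V1 libraries thus fell between or just below the DMSO libraries, and the log2 changes were −0.31, −0.30 and −0.25 (SE 0.23 each), or 0.07, 0.07 and 0.13 without DMSO replicate 1. The genes with a nearby ZFP143 peak were not called either, and their changes differed in sign at 24 h. Hist1h1c, with a peak inside the gene, had 332 and 198 CPM in DMSO, then 293 and 233 (2 h), 313 and 237 (6 h) and 313 and 268 (24 h), with log2 changes of −0.01, 0.05 and 0.14. Hist1h4d had 370 and 217 CPM in DMSO and 301 and 264 at 24 h, a change of −0.05 (SE 0.25). Hist1h2ai, Hist1h2bl and Hist1h3h, which share a peak, changed by −0.37, −0.35 and −0.23 at 2 h, each with an adjusted p of 0.656 or more (edgeR quasi-likelihood test), and by −0.22, −0.11 and 0.00 at 24 h.

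**Figure D1:**
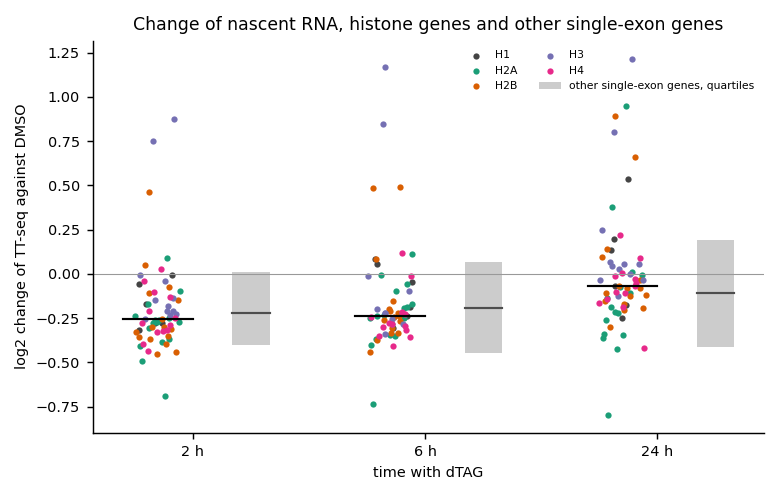
Log2 change of each tested member against DMSO in TT-seq after 2, 6 and 24 h of dTAG-V1, by isotype. Of the 63 members 57, 54 and 42 lie below 0 at the 3 times, with medians of −0.26, −0.24 and −0.07, and no member was called.

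The 4 members with the greatest increases at 24 h were chosen after their values were seen. Hist1h2aa and Hist1h2ba, the testis-specific H2A and H2B genes that face away from each other at the edge of the Hist1 cluster, had low levels. Hist1h2aa had 6.41 and 3.96 CPM in DMSO, then 3.98 and 4.52 (2 h), 4.91 and 4.71 (6 h) and 12.5 and 7.45 (24 h), so that both 24 h libraries lay above all others (log2 change 0.95, SE 0.33, adjusted p = 0.138, edgeR quasi-likelihood test). With the replicate number as a block it was called (0.94, adjusted p = 0.0478, edgeR quasi-likelihood test). Hist1h2ba had 6.52 and 3.81 CPM in DMSO and 10.6 and 8.43 at 24 h (log2 change 0.89, adjusted p = 0.18, edgeR quasi-likelihood test).

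Hist2h3c1 and Hist2h3c2, near-identical H3 genes of the Hist2 cluster whose reads cannot be fully assigned, varied between replicates. Hist2h3c1 had 7.24 and 15.9 CPM in DMSO, then 23.7 and 19.3 (2 h), 30.9 and 21.9 (6 h) and 14.4 and 39.8 (24 h), with log2 changes of 0.88, 1.17 and 1.22 and adjusted p of 0.561, 0.26 and 0.19 (edgeR quasi-likelihood test). Hist2h3c2 changed by 0.75, 0.85 and 0.80. Of the 6 dTAG-V1 libraries, 5 lay above both DMSO libraries for Hist2h3c1, and replicate 1 at 24 h lay between them. DESeq2 called Hist2h3c1 at 24 h, and without a filter on counts Hist2h3c1 was called higher at all 3 times and Hist2h3c2 at 6 and 24 h, where that fit called 0.445%, 0.929% and 2.82% of all genes higher at 2, 6 and 24 h.

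In steady-state RNA, the depletion time course held too few counts for nearly all members. Hist1h1c was the only one of 67 tested. It had 52 and 17 counts in DMSO, then 17 and 25 (24 h), 21 and 21 (48 h) and 26 and 16 (72 h), and DMSO replicate 1 alone stood above the others. Its log2 changes were −0.64, −0.67 and −0.76 (adjusted p = 1, 0.674 and 0.429, edgeR glmTreat against a 1.5-fold change), and it was not called at an adjusted p under 0.01. The direction rested on that library: without DMSO replicate 1 the changes were 0.57, 0.54 and 0.45, and without DMSO replicate 2 they were −1.40, −1.43 and −1.52. Of 13925 genes, the 24 h contrast called 3.41% lower and 2.32% higher. The 48 h contrast called 7.71% lower and 10.5% higher, and the 72 h contrast 12% lower and 13.7% higher. With library totals alone the median of all genes was 0.15, 0.21 and 0.23 at the 3 times, the share of higher genes among all calls was 56.2%, 74.6% and 71.2% in place of 40.5%, 57.6% and 53.3%, and Hist1h1c had −0.51, −0.47 and −0.54.

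DMSO replicate 1 of the time course stood apart for the whole family. The summed level was 50.7 CPM in it and 10.3 in DMSO replicate 2, while the dTAG-V1 libraries ranged from 6.49 (at 72 h) to 14.4 (at 24 h). Of the 57 members with any count in DMSO, 53 were higher in replicate 1. Rn7sk, the 7SK RNA that has no poly(A) tail, named here after its values were seen, had 9.40 CPM in that library and 2.09 in replicate 2, and 3.09 to 5.85 in the dTAG-V1 libraries. Summed snoRNA was 54.7 and 51.4 CPM of the library total in DMSO replicates 1 and 2, and summed snRNA 5.19 and 5.22. Whether tailless RNA entered that library in a greater amount was not tested.

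Without a filter on counts, 2, 4 and 12 of 59 members were called lower at 24, 48 and 72 h, where that fit called 2.01%, 4.49% and 6.83% of all genes lower. Among these members was Hist1h1a with 49 and 14 counts in DMSO, then 10 and 6 (24 h), 14 and 9 (48 h) and 3 and 2 (72 h). Hist1h4d had 36 and 9 counts in DMSO, then 2 and 6 (24 h), 7 and 3 (48 h) and 0 and 2 (72 h). A fit that also left out DMSO replicate 1 had 1 DMSO library of few counts (14 for Hist1h1a and 9 for Hist1h4d). It therefore could not decide whether these calls rest on DMSO replicate 1. Among the members with the highest DMSO level per kilobase the same library was the high one: Hist1h1a had 6.07 and 1.35 CPM per kb, Hist1h4h 6.25 and 0.303, Hist1h4k 4.42 and 0.457, Hist1h1b 3.46 and 0.480, Hist1h3e 3.41 and 0.341, Hist1h1c 3.06 and 0.777, Hist1h4d 2.91 and 0.564, Hist1h4f 2.82 and 0.182, Hist1h2ak 2.80 and 0.181, and Hist1h2ai 2.10 and 1.09.

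**Figure D2:**
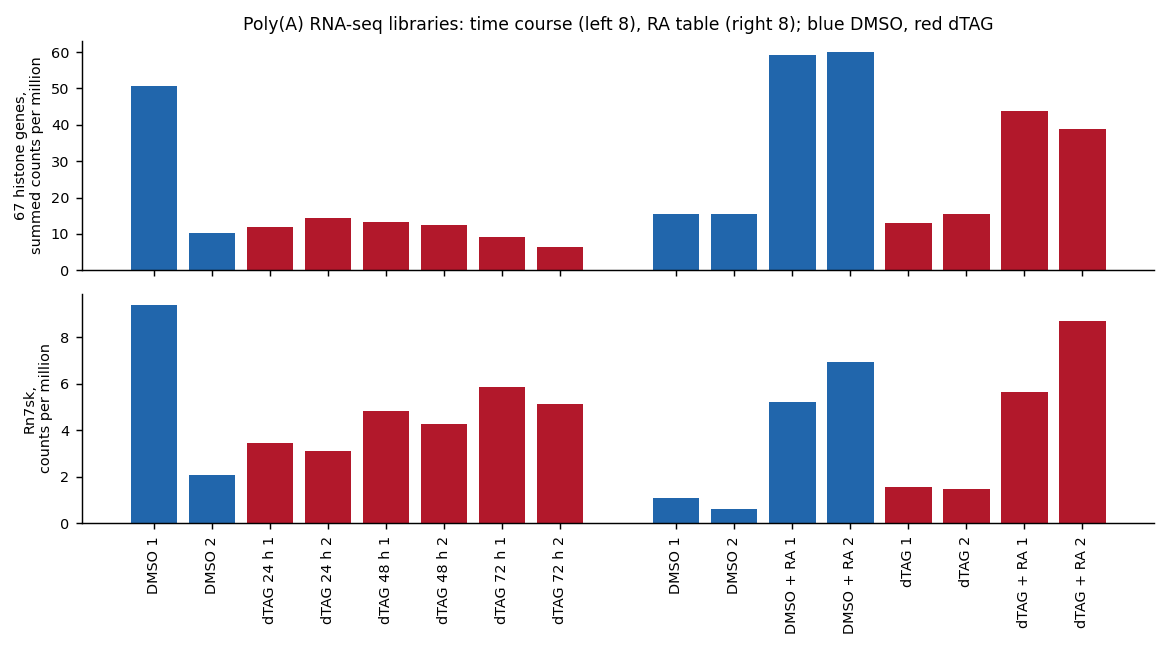
Summed level of the 67 histone genes and level of Rn7sk, both as CPM of the library total, in each of the 16 RNA-seq libraries. DMSO replicate 1 of the time course (50.7) and the 4 libraries with RA (38.8 to 60.1) stand above the others for the histone genes.

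RA treatment went with higher steady-state counts of the histone genes. Before RA they summed to 15.4 and 15.5 CPM of the library total in DMSO and 13.1 and 15.4 in dTAG-V1. After RA the sums were 59.1 and 60.1 in DMSO and 43.9 and 38.8 in dTAG-V1, so that all 4 libraries with RA lay above all 4 without. Rn7sk moved the same way, from 0.623 to 1.54 CPM without RA to 5.22 to 8.68 with RA. Summed snRNA was 2.97 to 6.05 CPM without RA and 7.06 to 12.6 with RA, and summed snoRNA, which overlapped, 57.6 to 75 and 54.1 to 66.0. The part of RNA without a tail was not tested. RA cells had also changed in kind: the summed level of the 8 stem cell markers went from 7085 to 7227 CPM in DMSO to 1365 to 1947, and that of the 4 proliferation markers (Mki67, Pcna, Ccnb1, Top2a) from 2262 to 2277 to 1735 to 1774. The 6 primitive endoderm markers went from 4.30 to 5.22 to 32.5 to 33.6 CPM, the 6 trophoblast markers from 44.0 to 50.2 to 76.3 to 90.5, the 4 fibroblast markers from 3.10 to 4.24 to 6.54 to 10.3, and the 4 2-cell-like markers from 2.29 to 3.67 to 44.8 to 47.5. Their part in the member values was not tested. In such bulk samples a change in the number of cells of a type and a change in RNA per cell cannot be told apart.

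Of the 67 members, 10 passed the filter (more than 10 counts in 4 or more libraries) and were tested among 15915 genes. With RA in DMSO cells, 7 were called higher and none lower, where 25.8% of all genes were called higher and 18.1% lower (edgeR glmTreat against 1.5-fold, adjusted p under 0.01). With RA in dTAG-V1 cells, 6 were called higher and none lower, against 25% and 18.5% of all genes. Leaving out single libraries gave 3 to 5 called higher in DMSO cells (3 without DMSO replicate 1) and 2 to 5 in dTAG-V1 cells (2 without dTAG-V1 replicate 2 and 3 without dTAG-V1 RA replicate 1). The filter itself favoured members that are high with RA: Hist1h3c and Hist1h4b passed only through the 4 libraries with RA, and Hist1h1a, Hist1h1d, Hist1h4d, Hist2h2be and Hist3h2ba had 3 or fewer libraries without RA over 10 counts. The counts of calls are therefore a description. Hist1h1c, Hist1h2bc and Hist1h4i passed through the libraries without RA alone, with log2 changes of 1.25, 2.28 and 1.01 in DMSO and 1.30, 1.40 and 0.90 in dTAG-V1 cells, beside medians of 0.03 and 0.00 for all genes, and of these 3 Hist1h4i was not called in either arm. The other calls were Hist1h3c, Hist1h4b, Hist2h2be and Hist3h2ba in both arms and Hist1h4d in DMSO cells. DESeq2 called 2 higher in each arm, Hist1h2bc and Hist3h2ba in DMSO cells and Hist1h1c and Hist3h2ba in dTAG-V1 cells. The shares of all genes called by DESeq2 and with a library left out are not reported here, so those counts stand without a background. With library totals alone in place of TMM, the median of all genes was 0.35 in DMSO and 0.39 in dTAG-V1 cells, and the share of higher genes among all calls went from 58.8% to 75.1% and from 57.5% to 78.2%.

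Hist1h1c, the linker histone with the most RNA-seq counts, had 79 and 83 counts in DMSO and 261 and 137 with RA, a log2 change of 1.25 (SE 0.19, adjusted p = 7.58e-04, edgeR glmTreat). In dTAG-V1 cells it had 66 and 113 counts, and 237 and 179 with RA, a change of 1.30 (SE 0.19). The RA groups did not overlap the others in either arm. Hist1h2bc, an H2B gene whose annotation runs 8246 bases past its stem-loop, had 29 and 18 counts in DMSO and 134 and 98 with RA (2.28, SE 0.25), and in dTAG-V1 cells 24 and 27 against 68 and 60 (1.40, SE 0.26). Hist2h2be had 10 and 12 counts in DMSO, 32 and 39 with RA, 15 and 22 in dTAG-V1 and 50 and 47 with both (1.68 and 1.46).

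The H4 genes and the remaining linker histones were less uniform. Hist1h4d had 10 and 12 counts in DMSO and 40 and 33 with RA (1.70, SE 0.35), while in dTAG-V1 cells it had 13 and 13 against 20 and 25 (0.86, SE 0.37, adjusted p = 0.175, edgeR glmTreat). Its difference between the arms was −0.84 (SE 0.52, adjusted p = 0.205, edgeR quasi-likelihood test). Hist1h4i was not called in either arm (1.01 and 0.90), nor was Hist1h1d (0.83 and 1.12) or Hist1h1a, which had 15 and 21 counts in DMSO and 35 and 18 with RA (0.51 and 0.08). As CPM, Hist1h1a had 0.787 and 1.2 in DMSO and 1.55 and 1.23 with RA, which did not overlap, while the dTAG-V1 groups did (0.519 and 0.797 against 0.826 and 0.605).

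Hist3h2ba, an H2B gene of the small Hist3 locus, had the greatest change with RA in DMSO cells among the 10 tested. It had 3 and 2 counts in DMSO and 168 and 121 with RA, a log2 change of 5.77 (SE 0.36, adjusted p = 1.82e-11, edgeR glmTreat). In dTAG-V1 cells it had 12 and 12 counts, and 75 and 65 with RA, a change of 2.61 (SE 0.29, adjusted p = 7.46e-07, edgeR glmTreat). The dTAG-V1 libraries lay above DMSO before RA and below it after RA, with no overlap at either point.

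The response to RA differed between the arms for Hist3h2ba by −3.16 on the log2 scale (SE 0.61, adjusted p = 2.77e-04, edgeR quasi-likelihood test), and it was the only one of the 10 called lower in this interaction, with none called higher. The same test called 18% of all genes lower and 13.7% higher. In the dTAG-V1 arm RA came with 48 h of depletion in place of 24 h, and in both arms with another medium. The contrast cannot tell these apart from RA. The call held under every alternative fit and with each library left out in turn (−3.41 to −2.97). The next lowest adjusted p was that of Hist1h2bc (−0.88, SE 0.38, adjusted p = 0.0662, edgeR quasi-likelihood test), which was called when DMSO replicate 1 before RA was left out (−1.20). The remaining 8 lay between −0.84 and 1.29, each with an adjusted p of 0.169 or more (edgeR quasi-likelihood test).

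Within a stage, depletion was called for at most 1 member. Before RA none of the 10 was called by edgeR or DESeq2, while 2 had an unadjusted p under 0.05 in edgeR and 0 in DESeq2, and 3.66% of all genes were called lower and 2.74% higher. Hist3h2ba had a log2 difference of 1.94 (SE 0.59, adjusted p = 0.0836) and Hist1h3c, with 10 and 10 counts in DMSO and 3 and 2 in dTAG-V1, had −2.22 (SE 0.64, adjusted p = 0.0548, both edgeR glmTreat). After RA 1 was called lower and none higher, against 7.36% and 9.1% of all genes. That was Hist3h2ba, with −1.23 (SE 0.20, adjusted p = 0.00267, edgeR glmTreat), a call lost with library totals alone (−1.02), with DESeq2 (−1.20), without DMSO RA replicate 2 (−1.15) and without dTAG-V1 RA replicate 2 (−1.08). The median log2 difference over the 10 was −0.21 before RA and −0.86 after RA, against 0.06 and 0.00 for all genes. With library totals alone these were −0.08 and −0.65 against 0.20 and 0.21, and the share of higher genes among all calls was 56.5% and 73.3% in place of 42.8% and 55.3%.

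In the same libraries the proliferation markers summed to 1735 to 1774 CPM in DMSO with RA and to 986 to 1066 in dTAG-V1 with RA, while before RA they were 2262 to 2277 and 2280 to 2282. The 2-cell-like markers (Zscan4d and others) summed to 44.8 to 47.5 CPM in DMSO with RA and to 156 to 182 in dTAG-V1 with RA. The primitive endoderm markers summed to 32.5 to 33.6 and 54.1 to 57.7, and the trophoblast markers to 76.3 to 90.5 and 58.3 to 62.7. The fibroblast markers summed to 6.54 to 10.3 and 25.9 to 26.2. The 6 RA response markers (Cyp26a1, Rarb and others) summed to 1353 to 1511 and 1363 to 1412. After RA, depletion called 4 of them lower and none higher (7.36% and 9.1% of all genes), with a median of −1.57. The interaction called 3 lower and none higher (18% and 13.7% of all genes), with a median of −2.18. Of the 8 stem cell markers it called 6 higher and 1 lower. The part of these markers in the member values was not tested.

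Hist2h3c2 and Hist3h2a, named after their values were seen, missed the count filter but had a marked pattern. Hist2h3c2, an H3 gene, had 2 and 1 counts in DMSO, 107 and 62 with RA, 0 and 0 in dTAG-V1, and 2 and 4 in dTAG-V1 with RA, so that it was high in the DMSO libraries with RA and at 4 counts or fewer in the other 6. Without a count filter it was called higher with RA in DMSO (5.65) and lower in dTAG-V1 after RA (−4.95, adjusted p = 3.12e-26, edgeR glmTreat), where that fit called 14.8% of all genes higher and 4.45% lower in these contrasts. Its near-identical copy Hist2h3c1 was at 0 in all 16 RNA-seq libraries. Hist3h2a, an H2A gene next to Hist3h2ba, had 4 and 7 counts in DMSO, 39 and 23 with RA, 5 and 1 in dTAG-V1, and 3 and 7 with both (2.41 and −2.80 without a count filter). Trim17, inside which it lies, had 8 and 3 counts in DMSO, 55 and 48 with RA, 9 and 8 in dTAG-V1, and 30 and 25 with both, so that reads of the 2 genes may be mixed.

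Genes that make, load or replace these histones are given by lists chosen by function. Of 33 genes for histone mRNA synthesis and processing, 7 had a ZFP143 peak at the start: Ccna2, Ccne2, Cpsf4, Lsm10, Ncbp1, Sympk and Zfp473. Of all protein-coding genes 10.2% had one (2245 of 21951), and of 26 histone chaperones 5 did. In TT-seq, none was called at 2 h. At 6 and 24 h only Cpsf4 was called lower (−0.75 and −0.73), where 2.83% and 4.09% of all genes were. Cpsf4 encodes a subunit of the cleavage and polyadenylation specificity factor. The median over the list was −0.06, −0.07 and −0.13. Npat and Slbp were not called in TT-seq (0.22 and −0.18 at 2 h).

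The RNA-seq time course tested 32 of them: the 24 h contrast called 1 lower, the 48 h contrast 6 and the 72 h contrast 4, while 1 was called higher, at 72 h (Tut7, a terminal uridylyltransferase that acts in histone mRNA decay, 0.90). Of all genes 3.41%, 7.71% and 12% were called lower at these times, and 2.32%, 10.5% and 13.7% higher. In the same libraries the proliferation markers summed to 1699 to 1763 CPM in DMSO, 1676 to 1729 at 24 h, 1300.4 to 1317 at 48 h and 1092 to 1095 at 72 h, and the stem cell markers to 6520 to 6725 in DMSO and 4216 to 4265 at 72 h. Their part in the values of the list was not tested. Slbp, which binds the stem-loop, was lower at 48 h (−0.87, adjusted p = 4.87e-06, edgeR glmTreat) and not called at 72 h (−0.66, adjusted p = 0.0713, edgeR glmTreat). Ccne2, whose cyclin E activates NPAT with CDK2, was −1.02 at 24 h and −1.57 at 48 h and was not called at 72 h (−0.73, adjusted p = 0.0887, edgeR glmTreat), and Ccne1 was −0.91 at 48 h and −1.33 at 72 h. With RA, 12 of the 32 were called lower and 1 higher in DMSO cells, and 14 lower and none higher in dTAG-V1 cells, where 18.1% and 18.5% of all genes were called lower and 25.8% and 25% higher. Slbp was −1.55 and −1.25 and Srrt, which links the cap complex to 3′ end formation, −1.88 and −2.11. The median over the list was −0.57 and −0.58.

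Among the 11 replication-independent histones, H2afy, the macroH2A gene with a ZFP143 peak at its start, was called lower in every depletion contrast. Its log2 change in TT-seq was −1.07 at 2 h (adjusted p = 0.00347, edgeR quasi-likelihood test) and −1.54 at 24 h. In RNA-seq it was −1.67 at 24 h and −2.75 at 72 h, and in the RA table −2.00 before RA. Of the other 10, none was called in TT-seq at 2 or 6 h or in RNA-seq at 24 h. Of all genes 2.43%, 2.83% and 3.41% were called lower there, and 0.168%, 0.397% and 2.32% higher. H3f3b, an H3.3 gene, was called higher at 24 h of TT-seq (0.71), as were 2.02% of all genes. H2afx was called lower and H3f3b and H1f0 higher at 48 and 72 h of RNA-seq, and Cenpa and H2afv lower at 72 h. Of all genes 7.71% were called lower and 10.5% higher at 48 h, and 12% and 13.7% at 72 h. After RA, depletion called H2afx lower (−1.32) and H1f0 higher (1.03), beside 7.36% and 9.1% of all genes. Of 26 histone chaperones, which escort histones to DNA, none was called in TT-seq at any time, and in RNA-seq 0, 3 and 4 were called lower at 24, 48 and 72 h (3.41%, 7.71% and 12% of all genes) and 1 higher at 72 h (13.7% of all genes). With RA, 14 of the 26 chaperones were called lower in DMSO cells, and 14 lower and 1 higher in dTAG-V1 cells, beside the same 18.1% and 18.5% of all genes called lower and 25.8% and 25% higher.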

How the data were processed

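Nascent RNA was measured by TT-seq and steady-state RNA by poly(A)-selected, stranded RNA-seq in 12 groups of 2 libraries. The authors deposited raw read counts per gene. For TT-seq they aligned reads to mm10 with STAR, kept uniquely mapped reads, removed duplicates with Picard and counted strand by strand over whole genes with HTSeq, so that a read over 2 genes counted for both. For RNA-seq they took the exon counts of STAR. Unique mapping lowers the counts of near-identical histone copies, and the RNA-seq kit selects RNA with a tail, which these mRNAs normally lack. The ZFP143 peaks were deposited with the fold enrichment over input and the −log10 q value that MACS2 gave the authors, and the CTCF peaks as positions alone. Contacts from chromosome conformation capture were not used here.

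Genes were tested with edgeR 4.0.16 (R 4.3.3, limma 3.58.1) with TMM scaling, 1 fit per table with group as the only term, keeping a gene where 4 or more libraries held over 10 counts (2 or more of the 6 DMSO libraries for nascent against steady-state RNA). TT-seq, the assay comparison and the interaction used the quasi-likelihood test, called below 0.05 after Benjamini-Hochberg adjustment where the log2 change exceeded 0.5 in size. Elsewhere in RNA-seq glmTreat set a bound of 1.5-fold, and a gene was called below 0.01 after adjustment. The scripts were tested on simulated data. DESeq2 1.42.0, other scalings, no filter, a replicate block and leaving out each library were alternatives. Replicate numbers were shared between groups. The authors call the libraries biological replicates, but no source used here says whether equal numbers pair libraries of different groups. Same-numbered TT-seq libraries deviated together, those of the RNA-seq tables did so in some pairs of groups at most, and the blocked value is given where it changed a call. The genes named were the 3 members of each isotype with the highest TT-seq level per kb, the 10 with the highest RNA-seq level per kb, the called members and those with a peak near the start, and others are said to be chosen after their values were seen. The members and lists were chosen with earlier results of these data known. Of 55401 gene identifiers, 55141 matched the annotation used for exon lengths, and 3 pseudogenes with a matching symbol were left out. Sequences came from RefSeq (GRCm38.p6). Intervals for counts are not given, and the precision rests on the spread of 2 libraries, with a biological coefficient of variation of 17.2% (TT-seq), 3.65% (depletion series of RNA-seq) and 5.92% (RA table).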

Additional observations from a re-analysis of the deposited data

Results flagged for a closer look

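The response of Hist3h2ba, an H2B gene of the Hist3 locus, to RA differed between dTAG-V1 and DMSO cells by −3.16 on the log2 scale (SE 0.61, adjusted p = 2.77e-04, edgeR quasi-likelihood test of the interaction), with a log2 change of 5.77 in DMSO and 2.61 in dTAG-V1 cells. The counts were 3 and 2 in DMSO, 168 and 121 in DMSO with RA, 12 and 12 in dTAG-V1, and 75 and 65 in dTAG-V1 with RA. RA came with another medium and, in the dTAG-V1 arm, with 48 h of depletion in place of 24 h. These cannot be told apart from RA.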

How the results depend on the processing

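None of the 18 called values of named members turned sign in any alternative, but 27 of the 62 values that were not called did so in at least 1, as did 7 of the 12 medians over members. These were the TT-seq medians and those of the RNA-seq time course, where Hist1h1c was the only member tested, all without DMSO replicate 1, and the median of the interaction, which was 0.02 without dTAG-V1 replicate 2 in place of −0.16. The interaction of Hist1h4b ranged from −5.05 to 0.86 with single libraries left out, and the RA change of Hist1h1a in dTAG-V1 cells from −0.16 to 0.45. The summed member level of DMSO cells in the RA table was 15.5 CPM by library size alone, against 18.4 with TMM. Without a count filter the members called higher in TT-seq were 1, 2 and 2 at 2, 6 and 24 h, those called lower in RNA-seq were 2, 4 and 12 at 24, 48 and 72 h, and those called lower after RA were 3. At 24 h of TT-seq, DESeq2 called 1 member higher (Hist2h3c1) and the replicate block called 1 (Hist1h2aa, 0.94), while leaving out single libraries gave 0 to 1, the 1 being Hist3h2a without DMSO replicate 1. At 72 h of RNA-seq, leaving out single libraries gave 0 to 1 called lower, the 1 being Hist1h1c without DMSO replicate 2 (−1.52), which was 0.45 without DMSO replicate 1. After RA, library size alone gave 0 called lower, DESeq2 gave 0, and leaving out single libraries gave 0 to 1. RA in DMSO called 2 higher with DESeq2 (Hist1h2bc and Hist3h2ba) and 3 to 5 with single libraries left out, 3 without DMSO replicate 1. RA in dTAG-V1 called 2 with DESeq2 (Hist1h1c and Hist3h2ba) and 2 to 5 with single libraries left out, 2 without dTAG-V1 replicate 2 and 3 without dTAG-V1 RA replicate 1. The interaction called 1 to 2 lower, the 2 without DMSO replicate 1. The cause of these shifts was not tested. Shares over all genes were taken for the main fit and part of the fit without a filter. The counts from DESeq2, the block and left-out libraries therefore stand without a background share. A CTCF peak anywhere within 5000 bases was found for 1 member, against 29.4% of protein-coding genes. Stem-loops within 200 bases after the stop codon were found for 62 members, against 37 at the annotated end. The stem-loop window after the stop codon, the coding length and the RNA-seq fits without both the filter and DMSO replicate 1 were chosen after seeing the data. Deviations of same-numbered libraries correlated at 0.214 to 0.667 in TT-seq, −0.0558 to 0.0575 in the RNA-seq time course and −0.175 to 0.192 in the RA table, and beyond Hist1h2aa the replicate block moved no count of calls by over 1.5 times. With 2 libraries a group and at most 10 counts in 38 members, changes in steady-state RNA of most members were not detectable at this depth.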
